A study of Homo sapiens with 6 samples.

Results

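Glycosaminoglycans are the sulfated sugar chains that proteoglycans such as aggrecan carry, and the RNA of the enzymes that build and sulfate them was followed in TC28a2 cells, an immortalized human chondrocyte line. The 47 genes were taken by name from the count table, and all 47 were found among its 60623 genes. They cover the linker region, the chondroitin sulfate and heparan sulfate chains, the sulfotransferases and epimerases, the extracellular sulfatases, and the supply of sulfate and UDP-sugars. For 24 hours, cells received either mocetinostat at 2 μM, an inhibitor of class I histone deacetylases, or its solvent DMSO. Each condition had 3 samples, which the study describes as coming from independent experiments, all on this line. RNA-Seq counts reads from RNA, so that neither enzyme activity nor the chains themselves were measured.

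A glycosaminoglycan chain starts when xylose is placed on a serine of the core protein and is extended by galactose and glucuronic acid into a linker. The next sugar decides the type of chain. An N-acetylgalactosamine (GalNAc) starts chondroitin sulfate, which becomes dermatan sulfate where glucuronic acid is epimerized, and an N-acetylglucosamine starts heparan sulfate. Sulfotransferases then add sulfate from the donor PAPS at defined positions, and in cartilage the dense negative charge of chondroitin sulfate on aggrecan holds water in the tissue.

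Total counts ranged from 4873426 to 11031132 with DMSO and from 1619344 to 5089542 with mocetinostat, so that 1 read was worth between 0.0900 and 0.207 CPM (read counts scaled to a common library size) in the former and between 0.196 and 0.613 CPM in the latter. As a check of the label, the 14 chondrocyte markers examined summed to between 122 and 145 CPM with DMSO and to between 263 and 306 CPM with mocetinostat; *SOX9* held at least 301 counts in each library, *COL2A1* held 26, 7, and 19 counts with DMSO, and *CNMD* held 0 in all 6. The 8 fibroblast markers, *COL1A1* foremost, summed to between 4637 and 5604 CPM with DMSO and to between 4281 and 4657 CPM with mocetinostat, and the 5 epithelial markers to between 895 and 1077 and between 1917 and 1966 CPM, most of it keratins 8 and 18. The 6 leukocyte and endothelial markers summed to between 4.69 and 7.87 CPM with DMSO and to between 14.1 and 18.4 CPM with mocetinostat. The part of these shifts in the results was not tested.

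Of the 47 genes, 40 passed the filter on low counts and were tested. By the quasi-likelihood test of edgeR, adjusted after Benjamini and Hochberg over all 13966 genes tested, 9 were upregulated and 1 was downregulated, where a call needs both an adjusted p under 0.05 and a change of more than 1 in log2 fold change (log2FC, mocetinostat over DMSO) in either direction. These are 22.5% and 2.5% of the 40, beside 20.2% and 8.18% of all genes tested, so that over all genes tested the upregulated share was near the background. Among genes for which no DMSO library held fewer than 50 counts, 5 of 36 (13.9%) were upregulated and 1 (2.78%) was downregulated, beside 7.22% and 10.03% of 9519 such genes. Without a minimum fold change, 19 of the 40 (47.5%) were higher and 6 (15%) were lower after mocetinostat treatment, against 32.9% and 31.4% of all genes. The CPM values of the 2 conditions did not overlap for 26 of the 40 genes (65.0%; 66.7% of all genes), with 21 higher (33.5% of all genes) and 5 lower (33.2%). The median log2FC was 0.29, against -0.0021 over all genes. When each library was instead scaled to its *GAPDH* count, the median of all genes moved to 0.53 and 15 of these genes were called upregulated and 0 downregulated, with 32 higher and 1 lower at an adjusted p under 0.05. *GAPDH* itself fell from 3023 ± 89.4 to 2088 ± 76.0 CPM (SD, n = 3), a log2FC of -0.53 (adjusted p = 2.58e-12 from edgeR). Scaling to it therefore moves other genes upward. In these bulk samples, a change in the share of cells that express a gene and a change in the RNA per cell cannot be told apart.

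**Figure D1:**
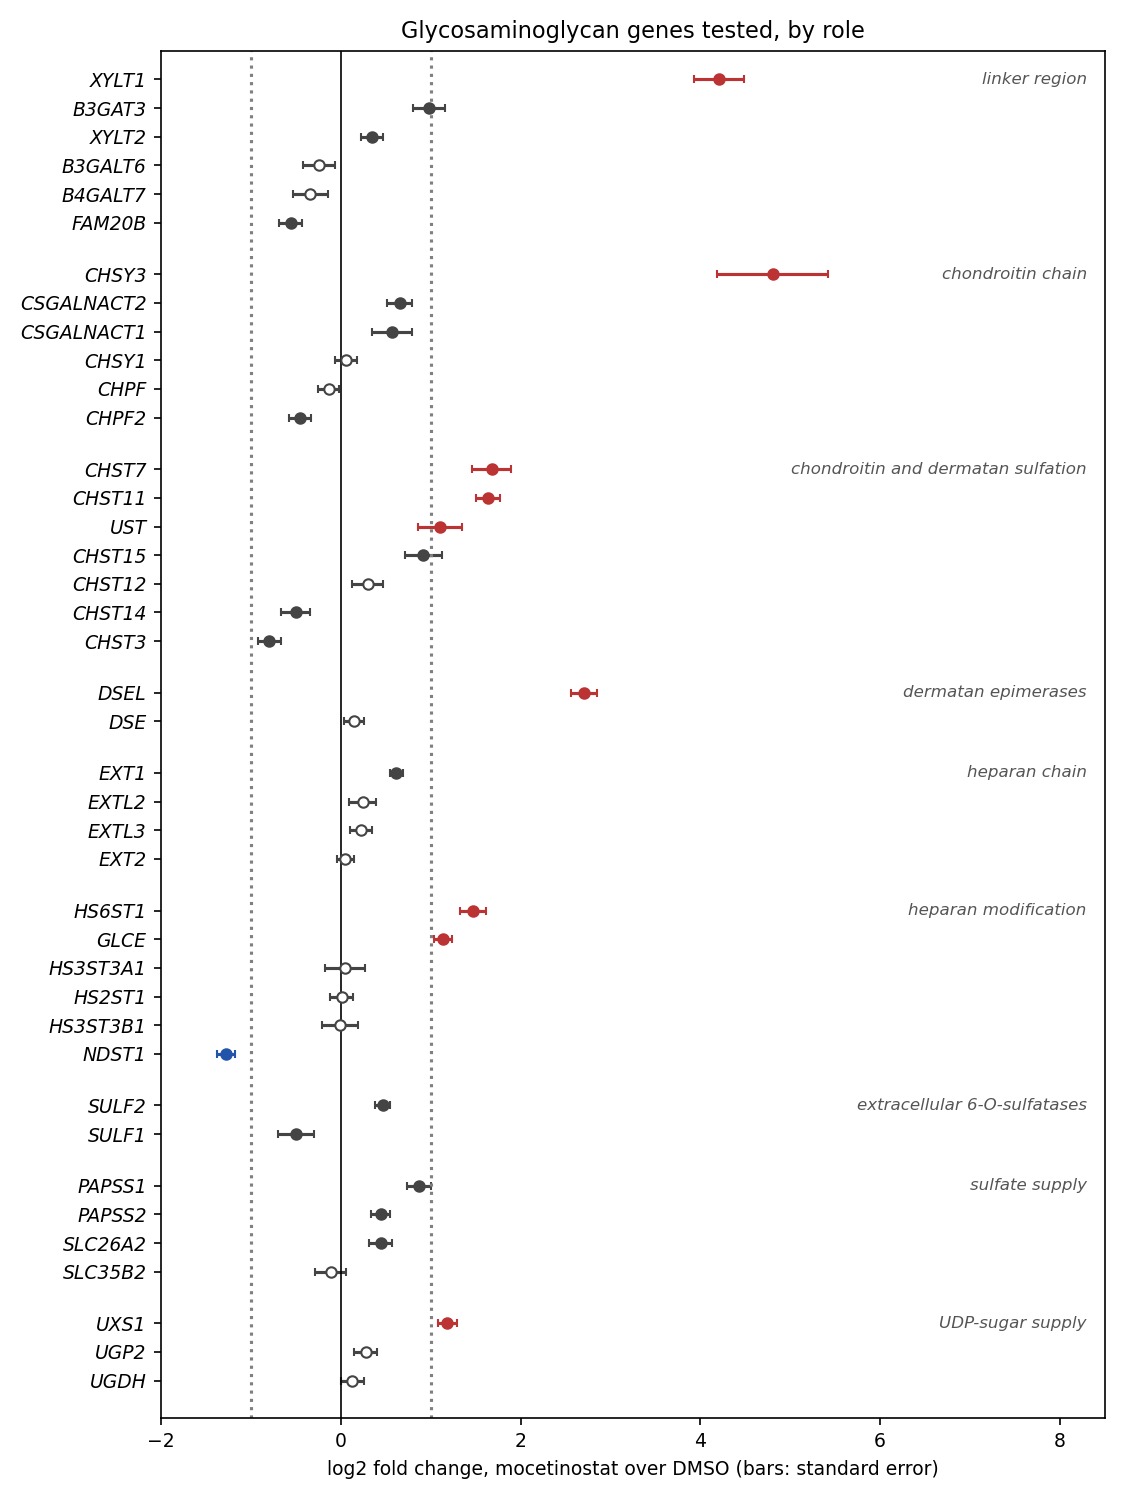
The 40 genes tested are grouped by role, with the log2FC of mocetinostat over DMSO on the horizontal axis and bars for the standard error. Filled points had an adjusted p under 0.05, and red (9 genes) and blue (1 gene) points also passed the fold threshold of 1, marked by dotted lines. The solid line marks the median log2FC of all genes tested (-0.0021).

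The 4 largest rises among tested genes were of genes that work beside a paralog with more RNA per length in DMSO-treated cells. *XYLT1*, *CHSY3*, *DSEL*, and *CHST7* rose, while among their partners *XYLT2* rose by a log2FC of 0.35, *CHSY1* and *DSE* did not pass the test, and *CHST3* fell. *XYLT1* and *CHSY3* were below the limit of the filter in every DMSO-treated sample and were tested because of the mocetinostat-treated ones. For these genes, a large rise and a partner with more RNA were in part given by the filter. *NDST1*, which carries out the first modification of heparan sulfate, fell.

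*XYLT1* and *XYLT2* encode the xylosyltransferases that start the linker. *XYLT1* (ENSG00000103489, chromosome 16 of GRCh38 from 17101769 to 17470960) was at 1.80, 1.45, and 1.76 CPM in DMSO replicates 1, 2, and 3 and at 26.5, 33.1, and 37.3 CPM in mocetinostat replicates 1, 2, and 3. The mocetinostat-treated samples thus all lay far above the DMSO-treated samples, which held only 20, 7, and 12 reads of the gene. Its log2FC was 4.21 (SE 0.27; edgeR, adjusted p = 1.19e-22), higher than in 96.4% of all genes tested. *XYLT2* had the highest level per length of the linker genes over all samples and was at 60.4, 67.1, and 78.2 CPM with DMSO and at 89.3, 90.8, and 79.1 CPM with mocetinostat, with a log2FC of 0.35 (adjusted p = 0.00804 from edgeR), which lost its adjusted p under 0.05 without DMSO replicate 1 (0.0733), without mocetinostat replicate 1 (0.0683), with DESeq2 (0.0736), or without the filter (0.603). Per kilobase of exon, *XYLT1* made up 1.2% ± 0.216 (SD, n = 3) of the RNA of this pair with DMSO and 15.6% ± 3.07 (SD, n = 3) with mocetinostat, so that *XYLT2* RNA still prevailed.

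The 3 glycosyltransferases that complete the linker did not move together. *B3GAT3*, which adds the glucuronic acid, rose from 16.7 ± 3.17 to 33.6 ± 3.48 CPM (SD, n = 3), a log2FC of 0.98 (adjusted p = 2.46e-06 from edgeR), just under the threshold of 1. The galactosyltransferases *B4GALT7* and *B3GALT6* had log2FC values of -0.34 and -0.25 with adjusted p = 0.116 and 0.223 from edgeR. For *B4GALT7* the mocetinostat-treated samples spread from 14.9 to 31.3 CPM, and without mocetinostat replicate 2, the highest, its log2FC was -0.63 (adjusted p = 0.00587 from edgeR). *FAM20B*, the kinase that phosphorylates the xylose, fell by 0.56 on the log2 scale (adjusted p = 8.26e-05 from edgeR), a fall that came to 0.020 under *GAPDH* scaling.

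The 300-base promoter windows of RefSeq (build GRCh38.p14) are shown for the 3 rises and the fall with the smallest p, with bases in capitals where they match GGGCGG, the GC box, or CACCC, the core of sites for Krüppel-like factors, on either strand; the 2 motifs may overlap. The windows run from 250 bases before to 50 bases after the RefSeq start, 5′ to 3′ on the gene's strand, and lie at chr16:17470911-17471210 on the minus strand for *XYLT1*, chr18:67516671-67516970 on the minus strand for *DSEL*, chr12:104456698-104456997 on the plus strand for *CHST11*, and chr5:150497529-150497828 on the plus strand for *NDST1*.
*XYLT1*: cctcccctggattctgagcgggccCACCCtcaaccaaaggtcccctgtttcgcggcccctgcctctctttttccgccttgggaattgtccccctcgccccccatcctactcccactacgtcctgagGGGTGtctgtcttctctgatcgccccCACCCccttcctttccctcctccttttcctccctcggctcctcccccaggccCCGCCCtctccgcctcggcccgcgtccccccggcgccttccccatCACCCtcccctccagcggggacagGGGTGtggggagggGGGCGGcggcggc
*DSEL*: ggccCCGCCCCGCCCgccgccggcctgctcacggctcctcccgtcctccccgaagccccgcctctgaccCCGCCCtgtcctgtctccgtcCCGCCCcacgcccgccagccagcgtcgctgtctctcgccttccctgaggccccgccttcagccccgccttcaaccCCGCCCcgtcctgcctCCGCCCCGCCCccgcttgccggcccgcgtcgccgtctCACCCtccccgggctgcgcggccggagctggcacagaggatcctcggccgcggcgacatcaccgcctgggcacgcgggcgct
*CHST11*: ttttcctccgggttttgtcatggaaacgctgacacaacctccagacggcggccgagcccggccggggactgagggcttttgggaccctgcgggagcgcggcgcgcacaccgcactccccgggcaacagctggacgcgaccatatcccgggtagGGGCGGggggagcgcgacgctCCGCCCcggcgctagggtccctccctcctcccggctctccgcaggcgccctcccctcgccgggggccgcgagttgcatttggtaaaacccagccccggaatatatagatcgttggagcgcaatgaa
*NDST1*: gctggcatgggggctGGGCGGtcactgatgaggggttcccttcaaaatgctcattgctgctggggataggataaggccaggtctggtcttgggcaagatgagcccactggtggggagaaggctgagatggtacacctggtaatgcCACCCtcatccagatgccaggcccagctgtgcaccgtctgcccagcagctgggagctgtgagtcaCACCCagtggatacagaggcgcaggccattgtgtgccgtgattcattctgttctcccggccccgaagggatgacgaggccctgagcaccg
The GC box occurred 2 times in the window of *XYLT1*, 7 times in that of *DSEL*, 2 times in that of *CHST11*, and 1 time in that of *NDST1*, and CACCC occurred 5, 1, 0, and 2 times, respectively. The *NDST1* window starts inside the gene as GENCODE release 44 draws it, from 150485818, and so does the window of *CHST11*, drawn from 104455295. Windows were found for 42 of the 47 genes, 60 in all because some have several starts. Of these 60, 78.3% held a GC box and 65.0% held CACCC, against 66.6% and 64.0% of the 15259 windows of genes tested and 45.0% and 59.9% of all 35116 windows. The E-box CACGTG was in 11.7% of the 60 windows (9.16% of the windows of genes tested) and TATAAA in 3.33% (6.04%). The median GC content was 68.7% for the 60 windows and 65.0% for those of genes tested.

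Chondroitin chains are started by *CSGALNACT1* and *CSGALNACT2* and polymerized by *CHSY1*, *CHSY3*, *CHPF*, and *CHPF2*. *CHSY3* (ENSG00000198108, chromosome 5 from 129904465 to 130186634) held 2 reads in each DMSO-treated sample and 18, 11, and 37 reads in mocetinostat replicates 1, 2, and 3. The pooled ratio was 27.3, with a 95% exact interval from 11.9 to 77.1 that covers counting error only. The edgeR log2FC was 4.81 (standard error 0.62, adjusted p = 2.23e-10), and it was 4.02 without mocetinostat replicate 3, whose 15.2 CPM stood above the 3.53 and 6.75 CPM of the other mocetinostat-treated samples. *CHSY1*, at 70.1 ± 1.95 CPM with DMSO and 72.9 ± 6.77 CPM with mocetinostat (SD, n = 3), had a log2FC of 0.06 (SE 0.12; edgeR, adjusted p = 0.696). *CHSY1* thus still made up 86.5% ± 7.26 (SD, n = 3) of the RNA of the CHSY pair per kilobase after mocetinostat treatment, down from 99.4% ± 0.230 (SD, n = 3).

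Both genes that start the chain rose, *CSGALNACT2* by a log2FC of 0.65 (adjusted p = 4.43e-05 from edgeR) and *CSGALNACT1* by 0.57 (adjusted p = 0.0218 from edgeR); the latter lost its adjusted p under 0.05 without DMSO replicate 1 (0.0546), DMSO replicate 3 (0.0824), or mocetinostat replicate 1 (0.229), with DESeq2 (0.187), and without the filter (0.358). *CHPF*, the chain gene with the most RNA per length, was at 86.9, 100.2, and 84.9 CPM with DMSO and at 81.8, 98.8, and 67.6 CPM with mocetinostat, overlapping ranges with an adjusted p of 0.311 from edgeR. *CHPF2* fell by 0.46 on the log2 scale (adjusted p = 0.000902 from edgeR), but was at 0.077 under *GAPDH* scaling, and 20.3% of its exons lie opposite those of *SMARCD3*, a gene of the other strand.

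**Figure D2:**
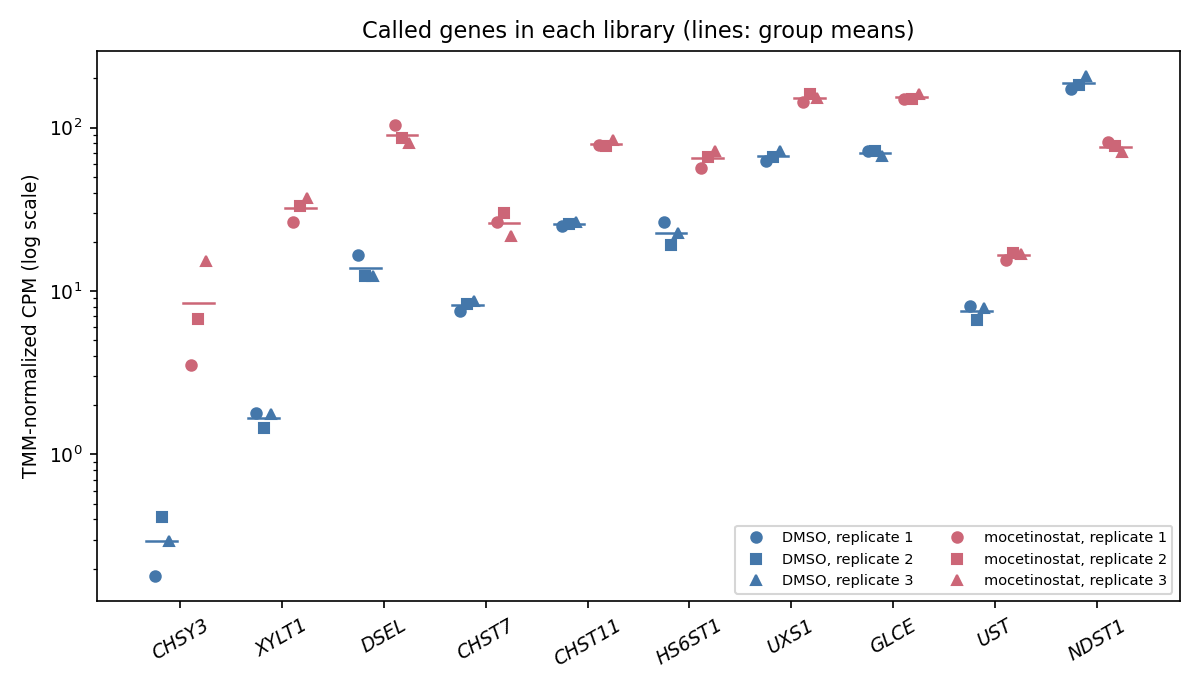
TMM-normalized CPM of the 10 called genes in each of the 6 libraries, on a log scale, with blue for DMSO, red for mocetinostat, a marker shape per replicate, and lines at the group means. The conditions do not overlap for any of the 10, and *CHSY3* shows the widest spread among mocetinostat-treated samples, from 3.53 to 15.2 CPM.

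The sulfotransferases of chondroitin changed in opposite directions within a position. *CHST3* and *CHST7* both place sulfate at position 6 of GalNAc. *CHST3* (ENSG00000122863, chromosome 10 from 71964395 to 72013558) was at 78.8, 66.7, and 82.3 CPM with DMSO and at 46.1, 44.2, and 39.7 CPM with mocetinostat, and fell by 0.80 on the log2 scale (adjusted p = 1.48e-07 from edgeR), or by 0.26 under *GAPDH* scaling (adjusted p = 0.088). *CHST7* (ENSG00000147119, chromosome X from 46573765 to 46598496) was at 7.56, 8.28, and 8.65 CPM with DMSO and at 26.5, 30.1, and 21.7 CPM with mocetinostat, a log2FC of 1.68 (SE 0.22; edgeR, adjusted p = 2.54e-10). No library of either gene overlapped with the other condition. Per kilobase, *CHST7* therefore went from 23.8% ± 2.39 to 63.3% ± 2.65 (SD, n = 3) of the RNA of this pair, being the lesser in each DMSO-treated sample and the greater in each mocetinostat-treated sample.

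At position 4, *CHST11* (ENSG00000171310, chromosome 12 from 104455295 to 104762014), a sulfotransferase required for normal cartilage growth, was at 25.1, 25.7, and 26.4 CPM with DMSO and at 78.3, 76.7, and 83.6 CPM with mocetinostat. The replicates lay close together, and the log2FC was 1.64 (SE 0.13; edgeR, adjusted p = 2.61e-18). *CHST12* had a log2FC of 0.30 (adjusted p = 0.121 from edgeR) although its values did not overlap, and *CHST13* held 0 reads with DMSO and 12, 0, and 7 with mocetinostat. *CHST14*, which acts on dermatan sulfate and had the highest level per length of the group, was at 39.2, 33.8, and 42.4 CPM with DMSO and at 25.1, 36.8, and 22.5 CPM with mocetinostat. It fell by 0.50 on the log2 scale (adjusted p = 0.00552 from edgeR), with overlapping values; its adjusted p was 0.0602 without mocetinostat replicate 1 and 0.289 in thinned libraries, and the log2FC was 0.035 under *GAPDH* scaling. Summed per kilobase, the RNA of the 4 position-4 enzymes was 1.6, 1.59, and 1.63 times that of *CHST3* and *CHST7* with DMSO and 1.51, 1.62, and 1.79 times with mocetinostat, so that these ratios overlapped between the conditions.

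The enzymes that make doubly sulfated units were higher. *CHST15*, which adds a further sulfate to GalNAc already sulfated at position 4, rose from 12.2 ± 0.807 to 22.6 ± 2.71 CPM (SD, n = 3), a log2FC of 0.92 (adjusted p = 6.18e-05 from edgeR). *UST*, which sulfates the uronic acid, was at 8.10, 6.63, and 7.92 CPM with DMSO and at 15.5, 17.2, and 16.8 CPM with mocetinostat, a log2FC of 1.10 (SE 0.25; edgeR, adjusted p = 7.00e-05). This is close to the threshold, and *UST* was no longer called with glmTreat, edgeR's test against the fold threshold itself (adjusted p = 0.56), without the filter (log2FC 0.85), or without DMSO replicate 2 (log2FC 0.997).

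*DSE* and *DSEL* encode the epimerases that turn chondroitin into dermatan sulfate. *DSEL* (ENSG00000171451, chromosome 18 from 67506587 to 67516720) was at 16.6, 12.4, and 12.3 CPM with DMSO and at 103.6, 85.9, and 80.7 CPM with mocetinostat. Every mocetinostat-treated sample lay far above every DMSO-treated sample. Its log2FC was 2.70 (SE 0.14; edgeR, adjusted p = 3.36e-27), and only 154 of the 13966 genes had a smaller p. An antisense gene covers 35.7% of its exons and held at most 2 reads in any library. Whether reads were counted by strand is not known, so that the counts of *DSEL*, and its level per length, are uncertain there. *DSE* was at 122.5, 101.3, and 103.5 CPM with DMSO and at 102.4, 135.6, and 129.9 CPM with mocetinostat, overlapping ranges with an adjusted p of 0.230 from edgeR. The share of *DSEL* in the RNA of the pair per kilobase went from 20.6% ± 1.10 to 60.2% ± 6.46 (SD, n = 3). With the length of the longest transcript in place of all exons it went from 12.6% ± 0.741 to 45.8% ± 6.85 (SD, n = 3), so that which of the 2 had more RNA per length after mocetinostat treatment depended on the length used.

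Heparan sulfate is polymerized by *EXT1* and *EXT2* after *EXTL3* has started the chain. *EXT1*, the most abundant of these genes per length, was at 354.7, 344.6, and 333.3 CPM with DMSO and at 534.5, 538.0, and 504.4 CPM with mocetinostat, a log2FC of 0.62 (SE 0.07; edgeR, adjusted p = 2.75e-11). *EXT2*, its partner in the polymerase, had a log2FC of 0.05 (standard error 0.10, adjusted p = 0.677), *EXTL2* of 0.24 (adjusted p = 0.170), and *EXTL3* of 0.23 (adjusted p = 0.092, all from edgeR). Between *EXT1* and *EXT2* the log2 ratio of reads within a library rose from 1.45 ± 0.0261 to 2.01 ± 0.194 (SD, n = 3), without overlap. *EXTL1* held 3, 0, and 1 reads with DMSO and 9, 0, and 2 with mocetinostat and was not tested.

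In the modification of heparan sulfate, *NDST1* (ENSG00000070614, chromosome 5 from 150485818 to 150558211) was the called gene that fell. This N-deacetylase/N-sulfotransferase makes the N-sulfated stretches on which the later enzymes act. It was at 171.9, 183.1, and 207.6 CPM with DMSO and at 81.2, 76.7, and 71.3 CPM with mocetinostat, and fell by 1.28 on the log2 scale (SE 0.10; edgeR, adjusted p = 2.84e-18). Under *GAPDH* scaling it stayed lower, by 0.75, but was no longer called. *NDST2* held 11, 7, and 4 reads with DMSO and 8, 3, and 3 with mocetinostat, and *NDST3* held 2, 0, and 0 and 1, 1, and 1, so that neither was tested. An overlapping gene on the same strand shares 82.9% of the exons of *NDST2*, so its counts are uncertain. Of these 3 genes, *NDST1* had the most reads in every library.

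The steps after N-sulfation gave rises or no call. *GLCE* (ENSG00000138604, chromosome 15 from 69160584 to 69272217), the epimerase that makes iduronic acid in heparan sulfate and the highest of this group per length over all samples, was at 72.0, 71.7, and 66.7 CPM with DMSO and at 150.5, 149.1, and 159.8 CPM with mocetinostat, a log2FC of 1.13 (SE 0.10; edgeR, adjusted p = 5.02e-16). It was not called with glmTreat, where its adjusted p was 0.145, or without the filter. *HS6ST1* (ENSG00000136720, chromosome 2 from 128236716 to 128318868), a 6-O-sulfotransferase, was at 26.5, 19.1, and 22.7 CPM with DMSO and at 56.5, 65.6, and 72.1 CPM with mocetinostat, a log2FC of 1.47 (SE 0.15; edgeR, adjusted p = 2.11e-14). Of the 100-base stretches of its transcripts, 10.8% also occur in the pseudogene *HS6ST1P1*, which held at most 1 read in a library. How reads that match both were counted is not known, so that the counts of *HS6ST1* are uncertain there. *HS6ST2* held 0, 1, and 4 reads with DMSO and 6, 3, and 3 with mocetinostat and was not tested. *HS2ST1*, the 2-O-sulfotransferase, had a log2FC of 0.01 (SE 0.13; edgeR, adjusted p = 0.967).

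Among the 3-O-sulfotransferases, which add the rarest modification, *HS3ST1* held 0 reads in each DMSO-treated sample and 13, 3, and 5 reads in mocetinostat replicates 1, 2, and 3. Set against 3 reads over the whole DMSO group, it was at least 17.4-fold higher, but it did not pass the filter; DESeq2 called it (adjusted p = 0.000239), as did edgeR without the filter (adjusted p = 5.45e-05). *HS3ST2* held 0 reads with DMSO and 0, 1, and 9 with mocetinostat, so that nearly all of its reads came from mocetinostat replicate 3. Without the filter, edgeR also called *HS3ST2* (adjusted p = 0.0070) and *CHST13* (adjusted p = 0.000187). DESeq2 called neither of them (adjusted p = 0.248 and 0.129). *HS3ST3A1* and *HS3ST3B1* had log2FC values of 0.05 (standard error 0.23, adjusted p = 0.868) and -0.01 (standard error 0.20, adjusted p = 0.970, both from edgeR). These neighbours share 10.5% and 8.16% of their 100-base stretches with each other, so that their counts are uncertain there.

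The extracellular sulfatases *SULF1* and *SULF2* remove 6-O-sulfate from finished heparan sulfate and moved apart. *SULF2* (ENSG00000196562, chromosome 20 from 47656197 to 47786616), the gene with the most RNA per length of all 47 with DMSO, was at 249.6, 253.9, and 261.4 CPM with DMSO and at 350.1, 360.1, and 338.9 CPM with mocetinostat, a log2FC of 0.46 (SE 0.08; edgeR, adjusted p = 4.31e-07), which had an adjusted p of 0.0540 without the filter. *SULF1* was at 21.7, 19.9, and 22.9 CPM with DMSO and at 14.9, 14.1, and 16.4 CPM with mocetinostat and fell by 0.50 on the log2 scale (adjusted p = 0.0245 from edgeR). Its adjusted p was 0.0509 without DMSO replicate 3 and 0.0831 without mocetinostat replicate 1, it missed 0.05 with DESeq2 (0.0983), in thinned libraries (0.172), and under a filter of 10 counts per sample (0.0571), and its log2FC was 0.041 under *GAPDH* scaling. Within each library, *SULF1* reads relative to *SULF2* reads were fewer with mocetinostat in 3 of 3 samples, with a difference in the log2 ratio of -0.95.

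Sulfate reaches the sulfotransferases through uptake, activation to PAPS, and transport of PAPS into the Golgi. The uptake and activation genes rose by less than the threshold for a call. *SLC26A2*, the sulfate transporter mutated in diastrophic dysplasia, went from 50.3 ± 4.44 to 67.9 ± 1.51 CPM (SD, n = 3), a log2FC of 0.44 (adjusted p = 0.00155 from edgeR). *PAPSS2*, the PAPS synthase with the most RNA per length of exon over all samples, was at 73.4, 73.1, and 71.7 CPM with DMSO and at 95.5, 100.6, and 99.6 CPM with mocetinostat, a log2FC of 0.44 (adjusted p = 0.000353 from edgeR). *PAPSS1* rose from 39.9 ± 3.38 to 71.3 ± 11.8 CPM (SD, n = 3), a log2FC of 0.87 (adjusted p = 2.04e-08 from edgeR). Without the filter, *SLC26A2* and *PAPSS2* no longer passed, each with a log2FC of 0.19 and with adjusted p = 0.335 and 0.272 from edgeR. The Golgi transporter *SLC35B2* had a log2FC of -0.11 (SE 0.17; edgeR, adjusted p = 0.578).

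For the UDP-sugars, *UGP2* makes UDP-glucose, *UGDH* oxidizes it to UDP-glucuronic acid, and *UXS1* converts that to UDP-xylose, the donor for the linker's first sugar. *UXS1* (ENSG00000115652, chromosome 2 from 106093308 to 106194301) was at 62.7, 66.1, and 72.1 CPM with DMSO and at 144.4, 159.5, and 151.6 CPM with mocetinostat, a log2FC of 1.18 (SE 0.10; edgeR, adjusted p = 1.75e-16). It was not called with glmTreat (adjusted p = 0.059) or without the filter, where its log2FC was 0.93. *UGDH* was at 64.4, 76.8, and 57.2 CPM with DMSO and at 73.8, 64.4, and 74.6 CPM with mocetinostat (adjusted p = 0.367 from edgeR), and *UGP2* had a log2FC of 0.28 (adjusted p = 0.0515 from edgeR).

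**Figure D3:**
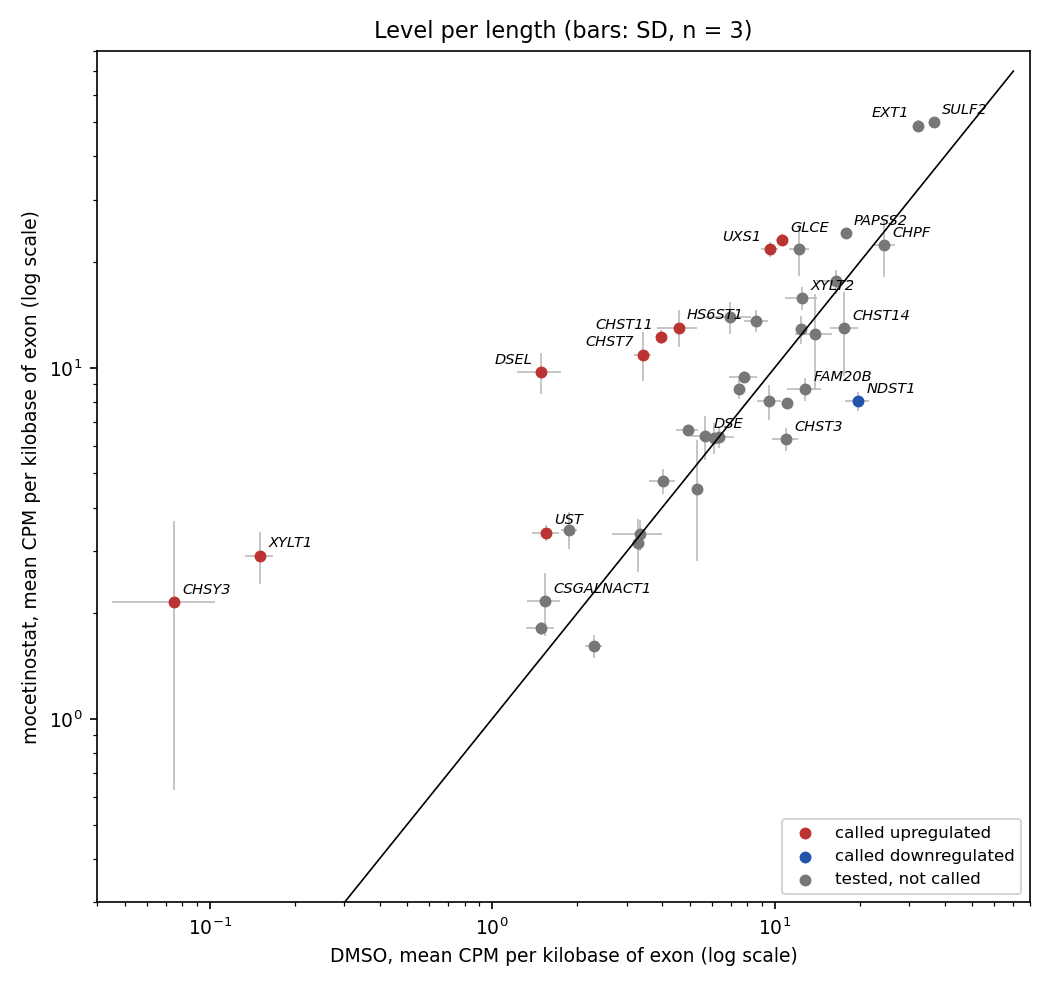
Mean CPM per kilobase of exon with DMSO (horizontal) and mocetinostat (vertical) for the 40 genes tested, both on log scales, with bars for the SD of 3 samples and a line of equal level. *EXT1* and *SULF2* hold the upper right corner, *XYLT1* and *CHSY3* lie farthest above the line, and *NDST1* farthest below it.

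Per kilobase of exon, 38 of the 47 genes reached at least 1 CPM with DMSO. *SULF2* (36.5) and *EXT1* (32.1) were followed by *CHPF* (24.5), *NDST1* (19.7), *PAPSS2* (17.8), and *CHST14* (17.7 CPM per kilobase); the last 2 differed by less than the SD of *CHST14*. With mocetinostat, *SULF2* and *EXT1* were at 50.1 and 49.0 CPM per kilobase, closer to each other than the SDs of 1.52 and 1.72, and *PAPSS2* (24.1), *GLCE* (23.1), *CHPF* (22.3), *PAPSS1* (21.9), and *UXS1* (21.8) came next, while *NDST1* was at 8.03. Ranks depended on the length used: per kilobase of the longest transcript, *SULF2* and *EXT1* still led under both conditions, at 71.2 and 63.8 CPM with mocetinostat, but *UXS1* (52.2) came next, *PAPSS1* (28.4) stood above *PAPSS2* (25.0), and *UGDH* was at 23.4. Summed over all 47 genes, the level was 372.8 ± 2.76 CPM per kilobase with DMSO and 476.1 ± 5.84 with mocetinostat (SD, n = 3), a ratio of 1.28. By role, the ratio of the summed levels ran from 1.05 for the chondroitin chain genes to 2.25 for the dermatan epimerases, or from 1.02 to 1.81 for the same groups with the longest transcript.

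**Figure D4:**
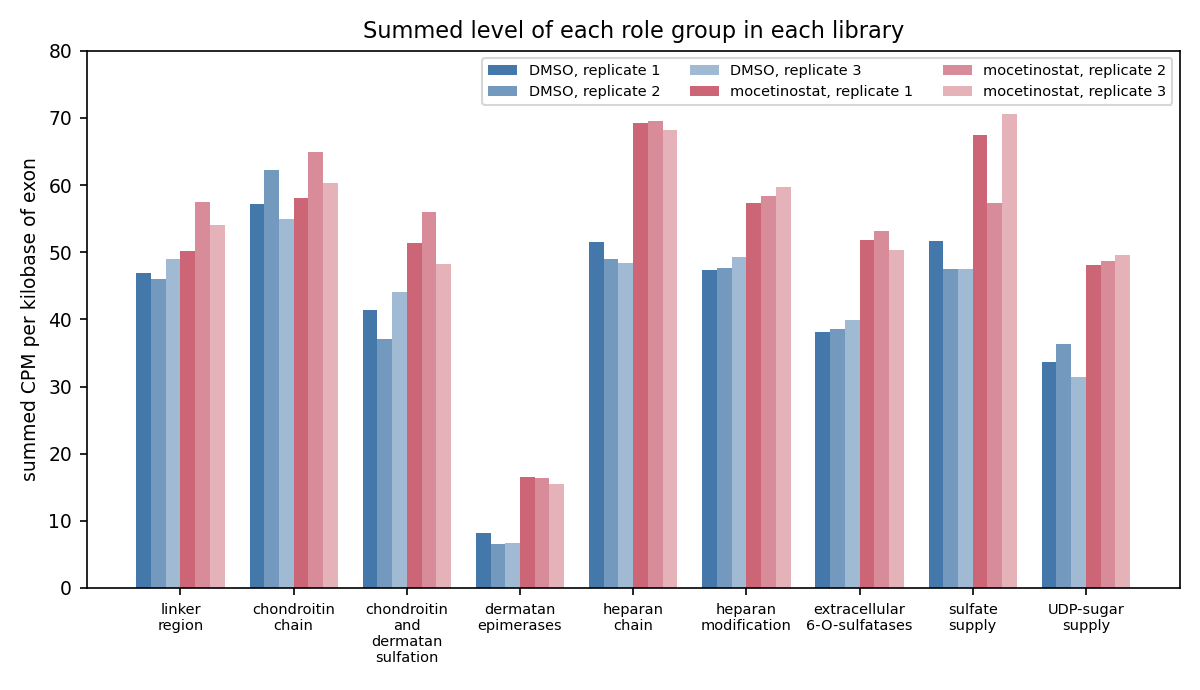
Summed CPM per kilobase of exon of each role group in each library, with blue bars for DMSO and red bars for mocetinostat. The 3 mocetinostat bars stand above the 3 DMSO bars in each group except the chondroitin chain genes, where DMSO replicate 2 (62.2) lies above mocetinostat replicates 1 and 3 (58.1 and 60.2).

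Ratios of the reads of paralogs within a library do not depend on how libraries are scaled. Among 13 such pairs, the log2 ratios of the conditions did not overlap in 8 (61.5%), and in 5 they did. This share is near the 66.7% of single genes whose CPM did not overlap. The largest differences were -4.33 for *CHSY1* over *CHSY3*, 3.87 for *XYLT1* over *XYLT2*, -2.55 for *DSE* over *DSEL*, -2.46 for *CHST3* over *CHST7*, and -2.05 for *NDST1* over *NDST2*. *CHSY3* held 2 reads in each DMSO-treated sample, and *NDST2* held as few as 3 reads in a library. The counts of *NDST2* are also uncertain because a gene on the same strand shares 82.9% of its exons. *CHST11* over *CHST12* differed by 1.33 and *EXT1* over *EXT2* by 0.56. An exact two-sided permutation test gave p = 0.1 for each of the 8 (0.1625 when adjusted over the 13 pairs), the smallest that 3 samples against 3 allow. The pairs with overlap were *PAPSS1*/*PAPSS2*, *CHPF*/*CHPF2*, *CSGALNACT1*/*CSGALNACT2*, *HS3ST3A1*/*HS3ST3B1*, and *HS6ST1*/*HS6ST2*, with exact p from 0.2 to 0.7.

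**Figure D5:**
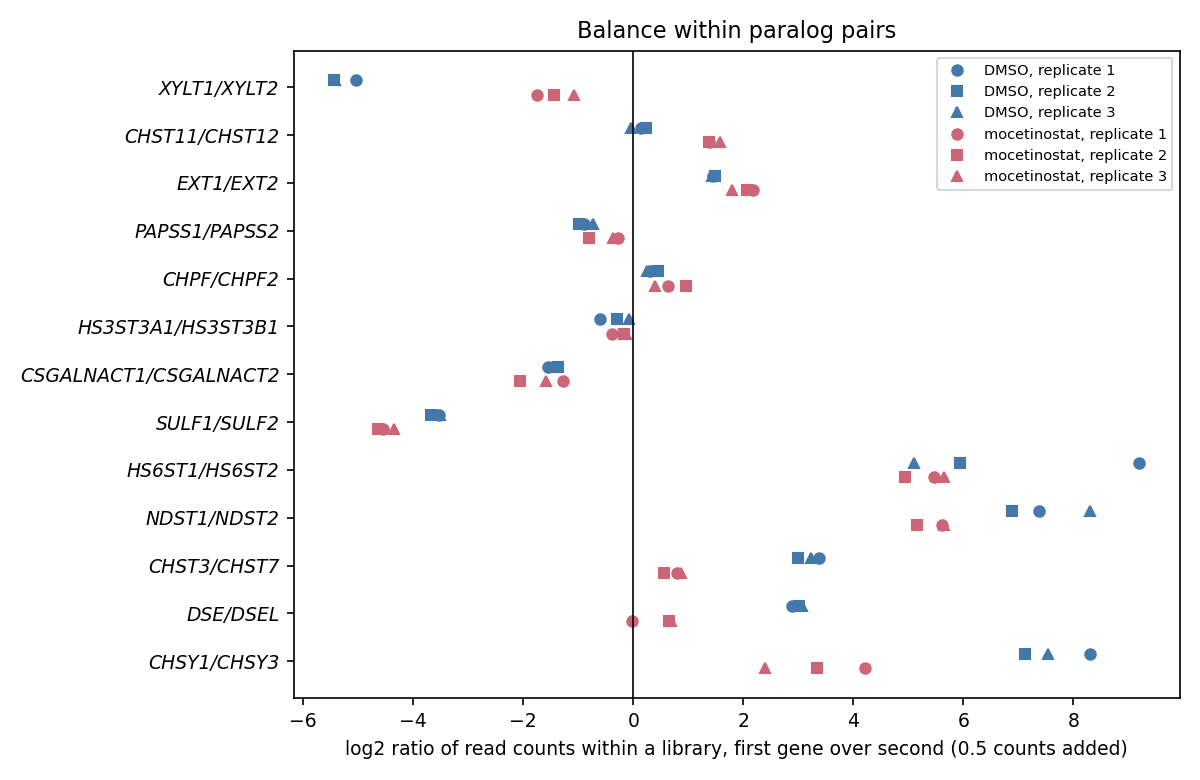
Log2 ratio of the read counts of 2 paralogs within each library (0.5 reads added to each), with blue for DMSO and red for mocetinostat. The red points lie apart from the blue ones in 8 of the 13 pairs, most widely for *CHSY1*/*CHSY3*, *XYLT1*/*XYLT2*, and *DSE*/*DSEL*.

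Other genes of the pathway were looked up from 2 further lists. These were chosen with earlier results of these data known, so that their shares were not independent of the data. Of 16 tested genes of glycosaminoglycan synthesis outside the 47, 6 were higher and 2 lower at an adjusted p under 0.05, and 3 were called upregulated and 1 downregulated. These shares are 37.5%, 12.5%, 18.8%, and 6.25%, beside 32.9%, 31.4%, 20.2%, and 8.18% of all genes tested, so that the upward ones were near the background. *PXYLP1*, the phosphatase that removes the phosphate placed by *FAM20B*, rose from 13.1 ± 2.07 to 33.6 ± 3.06 CPM (SD, n = 3), a log2FC of 1.34 (adjusted p = 2.74e-09 from edgeR). The sulfotransferases *HS6ST3* and *HS3ST6* held at most 1 and 2 reads with DMSO. With mocetinostat they held 48, 5, and 13 and 25, 23, and 13 reads. The pooled ratios were 81.9 (95% exact interval 21.8 to 690.5) and 75.7 (20.1 to 639.3). Both were tested because of the mocetinostat-treated samples, so that a large rise was in part given by the filter. *SLC35D1*, a transporter of nucleotide sugars for chondroitin synthesis, fell by 1.17 on the log2 scale (adjusted p = 3.21e-07 from edgeR), from 30.8 ± 6.58 to 13.3 ± 2.51 CPM (SD, n = 3). For keratan sulfate, the other sulfated glycosaminoglycan of cartilage, 9 genes were listed and 3 of them were not tested. The 6 tested genes were all higher at an adjusted p under 0.05 (32.9% of all genes tested). Of these 6, 4 passed the fold threshold (20.2% of all genes tested). The median log2FC of the tested genes was 1.95. The 4 were the sulfotransferases *CHST6* (7.85 ± 1.34 to 77.5 ± 4.31 CPM, log2FC 3.30), *CHST2* (16.5 ± 2.24 to 109.4 ± 9.73 CPM, 2.76), and *CHST1* (3.30 ± 0.534 to 30.5 ± 8.39 CPM, 3.11; SD, n = 3), and the glycosyltransferase *B3GNT2* (log2FC 1.14), with adjusted p between 4.02e-29 and 1.31e-10 from edgeR.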

How the data were processed

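RNA-Seq was performed on 6 samples of TC28a2 cells. The authors deposited raw counts per gene without normalization: adapters were trimmed, ribosomal reads were removed, and single reads were aligned to GRCh38 with STAR 2.6.1d and assigned with featureCounts 1.6.4; strand and multi-mapping settings are not given in the sources used here. Columns were matched to samples by name.

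TMM factors, filterByExpr (minimum count 10), and the quasi-likelihood test were computed with edgeR 4.0.16 (R 4.3.3), with the treatment as the only term; 13966 of 60623 genes were tested. CPM are counts divided by the total times the TMM factor. Exon lengths, overlaps, and shared 100-base stretches came from GENCODE release 44, which matched 99.5% of the genes, and promoters from RefSeq. All 47 genes are described. Values in each sample are given for called genes, genes removed by the filter (as reads), the gene with the highest mean level per length over all samples in each role, and paralogs that moved in opposite directions; for the other lists, up to 4 called genes with the smallest p. The members and lists were chosen with earlier results of these data known.

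Each sample counted as a replicate because the study describes independent experiments. Within conditions, replicate pairs differed by more than sampling noise (chi-square per degree of freedom between 1.93 and 7.95), which does not by itself show separate cultures. The common coefficient of variation was 9.30%. Intervals cover counting error only. Alternatives were DESeq2 1.42.0, RLE, library size, and *GAPDH* scaling, 2 other filters, glmTreat, a replicate block, leaving out each sample, and thinning every library to 1619344 counts. On simulated counts, edgeR called 98.5% of 199 changed genes in the right direction and 3 unchanged genes among 13952 tested. In the measured counts, 2827 genes were called upregulated and 1142 downregulated among 13966 tested. How edgeR performs with that many changed genes was not tested. Its performance for a log2FC near the threshold of 1, as for *UST*, *GLCE*, and *UXS1*, was not tested either.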

Additional observations from a re-analysis of the deposited data

How the results depend on the processing

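The counts of 9 genes called upregulated and 1 downregulated stayed within 1.5 times under DESeq2, RLE, library size only, thinned libraries, a filter of 10 counts per sample, and the replicate block (9 and 1, with 19 higher and 6 lower). They ranged from 9 to 12 and from 1 to 1 with a sample left out. With glmTreat, only 6 were called upregulated, at the edge of that limit, and 1 downregulated. The calls of *UST*, *GLCE*, and *UXS1* were lost there. Same-numbered samples did not deviate together (r between -0.02 and 0.01), and not every sample correlated best with its own number. Such correlations cannot exclude that same-numbered samples shared an experiment, and the labels do not say whether they did. The block moved no count of calls among the 40. GAPDH scaling moved all genes by about 0.53 on the log2 scale and gave 15 called upregulated, 0 downregulated, 32 higher, and 1 lower among the 40, and 30 upregulated and 0 downregulated in the other lists (18 and 1 otherwise). Without the filter, 2 genes were called downregulated, as were 2 of the other lists; glmTreat called 0 downregulated there, and with a sample left out between 0 and 2. Leaving out a sample gave between 8 and 10 paralog pairs without overlap.

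Directions turned both for genes that had not passed the test and for *CHPF2*, *CHST14*, and *SULF1*, which had fallen. Under GAPDH scaling the log2FC values became 0.19 for *B4GALT7*, 0.29 for *B3GALT6*, 0.40 for *CHPF*, 0.077 for *CHPF2*, 0.035 for *CHST14*, 0.53 for *HS3ST3B1*, 0.041 for *SULF1*, and 0.43 for *SLC35B2*. Without the filter they became -0.20 for *CHSY1*, -0.11 for *DSE*, -0.20 for *EXT2*, -0.011 for *EXTL2*, -0.027 for *EXTL3*, -0.24 for *HS2ST1*, -0.20 for *HS3ST3A1*, and -0.12 for *UGDH*. Genes whose direction held also moved down by similar amounts in that fit. The log2FC went from 4.21 to 3.95 for *XYLT1*, from 0.62 to 0.37 for *EXT1*, and from -1.28 to -1.53 for *NDST1*. The turns without the filter were thus part of a shared shift and not particular to these genes. With DESeq2, *HS2ST1* was at -0.027 and *HS3ST3A1* at -0.0035. In thinned libraries *HS3ST3A1* was at -0.075 and *HS3ST3B1* at 0.031, and the latter was at 0.0078 with RLE, 0.0044 with library size only, and 0.069 under the filter of 10 counts per sample. With a sample left out, the ranges were -0.032 to 0.12 for *CHSY1*, -0.045 to 0.12 for *EXT2*, -0.11 to 0.10 for *HS2ST1*, -0.15 to 0.16 for *HS3ST3A1*, -0.20 to 0.10 for *HS3ST3B1*, and -0.29 to 0.018 for *SLC35B2*. *UGP2* (adjusted p = 0.0515 from edgeR) passed with RLE (0.0375), library size only (0.0420), and the filter of 10 counts per sample (0.0113). The causes were not tested. The use of the longest transcript for levels per length was chosen for shares, sums, and ranks after seeing the data; it moved the share of *XYLT1* with mocetinostat to 11.7% and that of *DSEL* to 45.8%. The shallow mocetinostat libraries limit genes of few reads, such as *CHSY3* and the 7 genes not tested.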

Other observations

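The chains built by these enzymes sit on core proteins. Of 20 tested core protein genes, 15 (75%) were higher and 2 (10%) lower at an adjusted p under 0.05, against 32.9% and 31.4% of all genes tested. Among them 10 were called upregulated (50%, against 20.2% of all genes tested), while the 2 lower genes fell short of the fold threshold. This list, too, was chosen with earlier results of these data known, so that its shares were not independent of the data. The 4 with the smallest p were *SDC4*, which rose from 277.3 ± 14.0 to 687.1 ± 31.0 CPM (SD, n = 3), *TGFBR3* from 4.02 ± 0.105 to 45.2 ± 5.16 CPM, *SDC3* from 38.5 ± 0.0621 to 137.3 ± 14.2 CPM, and *GPC4* from 0.318 ± 0.283 to 22.04 ± 1.53 CPM, with log2FC values of 1.31, 3.52, 1.85, and 5.91 and adjusted p between 7.62e-26 and 3.04e-21 from edgeR. *GPC4* held 6, 2, and 0 reads with DMSO. Like *NCAN* and *GPC5*, also among the 10 called, it was below the limit of the filter in every DMSO-treated sample. All were tested because of the mocetinostat-treated samples, so that a large rise was in part given by the filter. *SDC3*, *SDC4*, and *GPC4* carry heparan sulfate at the cell surface.

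Of 16 tested genes that degrade glycosaminoglycans, 4 (25%) were higher and 3 (18.8%) lower at an adjusted p under 0.05, against 32.9% and 31.4% of all genes tested, and 1 (6.25%) was called upregulated, against 20.2%. This was *HPSE*, heparanase, which cuts heparan sulfate chains. It held 48, 11, and 24 reads with DMSO and 234, 58, and 141 with mocetinostat and rose from 3.37 ± 1.03 to 46.4 ± 11.1 CPM (SD, n = 3), a log2FC of 3.71 (SE 0.22; edgeR, adjusted p = 9.62e-25). The median log2FC of the list was -0.14, against -0.0021 over all genes tested.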
